A study of Mus musculus with 6 samples.

Results

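The Kruppel-like factors are zinc finger transcription factors that carry 3 fingers of the C2H2 type at their C-terminal end and bind CACCC and GC boxes, sequences they share with the Sp factors. Their N-terminal parts differ, and on that basis the family falls into an activator class (among the genes described here Klf2, Klf4, Klf5, Klf6 and Klf7), a class that recruits the corepressor CtBP (Klf3) and a class that recruits the corepressor Sin3A (Klf9, Klf10 and Klf13), with Klf15 outside these classes. Many of them are early response genes in fibroblasts, and the family is known for its part in quiescence, proliferation and differentiation. The 10 members described here were Klf2, Klf3, Klf4, Klf5, Klf6, Klf7, Klf9, Klf10, Klf13 and Klf15, chosen by the gene name that the array files give to a probe. They were covered by 13 of the 55681 probes, and were 10 of the 17 Klf genes named on the array.

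The arrays measured mRNA in 3T3 cells, a fibroblast line derived from mouse embryos, after silencing of the long non-coding RNA Ntep. Cells were treated for 48 h with 50 nM of GapmeR Ntep, a short antisense strand whose pairing with a transcript lets RNase H cut it, or with 50 nM of GapmeR control. Each label had 3 arrays from 3 independent experiments, and all cultures were of the same cell line. The 6 one-colour Agilent arrays lay on 1 slide. Between 43.7% and 53.3% of probes were well above background on an array, and no probe was saturated. Signals are given on a linear scale after quantile normalisation, with values under 20 set to 20, and differences are log2 values of arrays labelled GapmeR Ntep minus arrays labelled GapmeR control. A probe was tested if its mean was at least 50 in the brighter group, which held for 30990 probes. A probe that was dim under either label could pass through the other label alone. For such a probe the filter was not independent of the difference tested.

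All 8 of 8 fibroblast markers (Col1a1, Col1a2, Col3a1, Vim, Fn1, Pdgfrb, Thy1 and S100a4) were well above background on all 6 arrays. So were some markers of other cell types given below, so that detection alone does not identify the cells. The probe for Ntep, which the files name A630089N07Rik, lies at bases 98283712 to 98283771 of chromosome 16 in mm9. In experiments 1, 2 and 3 it gave 271, 272 and 361 with GapmeR control, and 472, 91.5 and 226 with GapmeR Ntep. The Ntep probe was therefore higher on the array labelled GapmeR Ntep in experiment 1 and lower in the other two, and the groups overlapped. The log2 difference was -0.48 (SE 0.58, limma adjusted p = 0.632), and without GapmeR Ntep replicate 2 it was 0.13. Because experiment 1 went against its label at this probe, arrays are called by their labels, and every direction below is that of the label. As these are bulk RNA samples, fewer cells with a transcript and less of it per cell cannot be told apart.

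Promoter windows of 4 members are shown because they set Klf2, the member with the greatest decrease, beside Klf4, which shares its class, and beside Klf6 and Klf9, which went the opposite way to Klf2. Each window holds the 250 bases before the RefSeq start of the gene in GRCm38.p6, printed from 5′ to 3′ on the strand of the gene, with matches to the searched motifs in capitals. The windows are chr8:72318812-72319061 on the plus strand for Klf2, chr4:55532476-55532725 on the minus strand for Klf4, chr13:5861239-5861488 on the plus strand for Klf6 and chr19:23140976-23141225 on the plus strand for Klf9.
Klf2: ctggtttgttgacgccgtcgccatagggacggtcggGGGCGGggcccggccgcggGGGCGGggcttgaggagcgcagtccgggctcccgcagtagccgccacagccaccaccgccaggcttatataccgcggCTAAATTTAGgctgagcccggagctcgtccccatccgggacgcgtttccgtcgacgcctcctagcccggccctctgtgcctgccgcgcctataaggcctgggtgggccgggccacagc
Klf4: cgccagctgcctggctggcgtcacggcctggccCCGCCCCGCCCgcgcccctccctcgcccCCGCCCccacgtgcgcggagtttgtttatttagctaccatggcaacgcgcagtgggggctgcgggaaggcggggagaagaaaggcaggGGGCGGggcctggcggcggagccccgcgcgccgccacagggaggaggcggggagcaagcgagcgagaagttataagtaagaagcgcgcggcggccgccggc
Klf6: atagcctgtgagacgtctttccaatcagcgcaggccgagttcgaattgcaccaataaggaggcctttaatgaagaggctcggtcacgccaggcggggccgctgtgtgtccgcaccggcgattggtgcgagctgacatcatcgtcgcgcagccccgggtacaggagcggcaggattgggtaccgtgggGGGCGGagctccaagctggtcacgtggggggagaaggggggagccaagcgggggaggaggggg
Klf9: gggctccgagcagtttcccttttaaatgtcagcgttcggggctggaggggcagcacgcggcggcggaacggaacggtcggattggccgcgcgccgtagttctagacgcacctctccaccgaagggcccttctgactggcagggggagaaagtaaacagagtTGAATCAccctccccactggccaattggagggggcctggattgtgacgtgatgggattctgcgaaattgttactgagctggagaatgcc

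The motifs were searched on both strands in the windows of 8 members listed in the RefSeq promoter table (Klf2, Klf3, Klf4, Klf6, Klf7, Klf9, Klf13 and Klf15) and in all 32851 windows of the same length. The GC box GGGCGG, a site that Sp and KLF proteins bind, was found in 7 of 8 member windows and in 32.7% of all windows. Klf9 was the member without it. In Klf4, 2 of its matches overlap, so that they print as 1 run. The MEF2 box, by which MEF2 factors bind DNA, was found in 1 of 8 windows, that of Klf2, where it starts at position -118 from the start of the gene, and in 0.508% of all windows. The pattern TGANTCA, a wider form of the AP-1 site that allows any middle base, was found in 1 of 8 and in 6.75% of all windows. The 1 match was in Klf9 at position -89 and reads TGAATCA, with A as its middle base. No member window held the CRE TGACGTCA (1.55% of all windows), the CACCC box CCACACCC (3.2%) or the CArG box (1.47%). The member windows had GC contents between 59.2% and 78.4%, above the median of all windows of 52.4%. The matches describe these letters in these windows and were not tested.

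The Klf members did not move as 1 group. Of the 10 genes, 9 were tested by their brightest probe, and each of these 9 probes was well above background on all 6 arrays. Klf2 fell and Klf9 rose at a fold change of at least 2 with an unadjusted limma p under 0.01, the limits used in the study. This makes 1 of 9 genes higher, beside 3.08% of all tested probes called higher, and 1 of 9 lower, beside 5.06% called lower. Klf5 and Klf6 were more than 2-fold higher but did not reach the p limit. Klf3, Klf4, Klf7, Klf10 and Klf13 differed by less than 2-fold. After Benjamini-Hochberg adjustment over all tested probes, limma called 0 of the 9 brightest probes at an adjusted p under 0.05, beside 5.3% of all tested probes, and the methods' t-test also called 0. An unadjusted p under 0.05 was reached by 4 of 9, beside 25% of all tested probes. The median log2 difference of the 9 genes was 0.08, beside 0.06 over all tested probes, with 5 genes above and 4 below 0.

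A fold change of at least 2 was seen in 4 of 9 members, of which 3 were higher, beside 17.5% of all tested probes. The groups did not overlap in the same 4 genes (Klf2, Klf5, Klf6 and Klf9), beside 32.1% of all tested probes. For these 4 genes the exact two-sided permutation test gave p = 0.1, the smallest that 3 against 3 arrays allow, so that this test cannot pass 0.05 here. In a fit with the experiments as blocks, limma's adjusted p was under 0.05 for Klf2, Klf5 and Klf6, and 0.063 for Klf9. In that fit 3 of 9 members passed after adjustment, beside 13.8% of all tested probes.

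**Figure D1:**
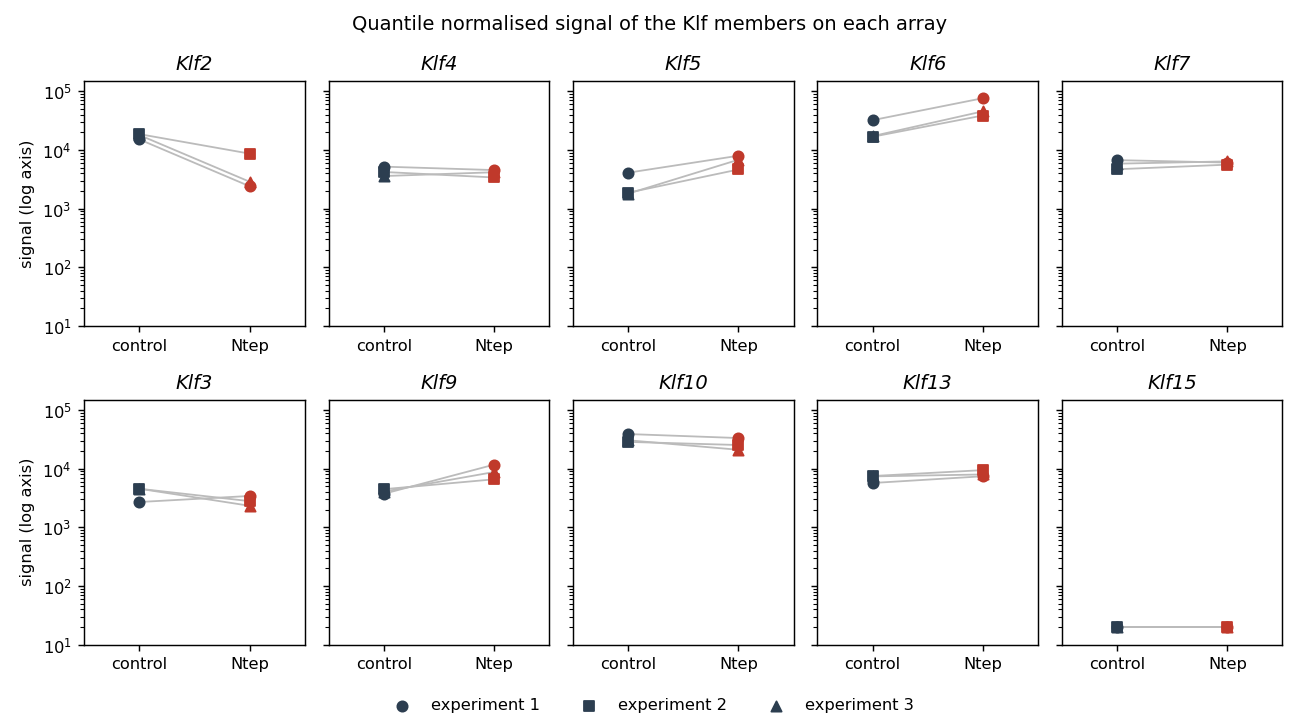
Quantile normalised signal (log axis) of the brightest probe of each of the 10 Klf members on the 3 arrays labelled GapmeR control (dark) and the 3 labelled GapmeR Ntep (red), with grey lines joining the arrays of 1 experiment and symbols marking experiments 1 to 3. Klf2 was lower and Klf5, Klf6 and Klf9 were higher on the array labelled GapmeR Ntep in all 3 experiments, and Klf15 stood at 20, the lowest value set, on all 6 arrays.

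Klf2, an activator first described in lung that holds T cells and endothelium in a quiescent state, was the member that fell. Its probe (mm9 chromosome 8, bases 74845137 to 74845196) gave a signal of 15159.8, 18671.5 and 18003 on the arrays labelled GapmeR control of experiments 1, 2 and 3, and 2410.0, 8681 and 2880.2 on those labelled GapmeR Ntep. The 3 control arrays lay close together, and all 3 arrays labelled GapmeR Ntep were lower, with experiment 2 the least so. The fitted log2 difference was -2.13 (SE 0.50, 95% confidence interval -3.35 to -0.92, unadjusted p = 0.005), a 4.39-fold lower signal. Its size exceeded that of 97.6% of tested probes. The limma adjusted p was 0.064, and with the experiments as blocks adjusted p = 0.044. Within experiments 1, 2 and 3 the difference was -2.65, -1.10 and -2.64. Without GapmeR Ntep replicate 2 the difference was -2.71 (adjusted p = 0.039), whereas leaving out any other array kept it between -2.23 and -1.78 but raised the unadjusted p above 0.01, to between 0.015 and 0.024.

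Klf4, which shares with Klf2 a route of induction through ERK5 and MEF2 and is known for its use in reprogramming fibroblasts, did not move with Klf2. At bases 55540167 to 55540226 of chromosome 4, the 3 control arrays gave 5208, 4227 and 3601, and the arrays labelled GapmeR Ntep 4552, 3406 and 4179.6. The groups overlapped, with 2 experiments lower and 1 higher. The log2 difference was -0.10 (SE 0.22, 95% confidence interval -0.62 to 0.43, limma adjusted p = 0.806), so that a change beyond 2-fold lay outside the interval.

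Klf5, an activator that is abundant in dividing epithelium and in smooth muscle cells after injury and is known to favour proliferation, had more signal under the GapmeR Ntep label. Its probe has coordinates of 99702656 to 99712388 on chromosome 14, a span of 9733 bases for a probe of 60, so that its bases are not adjacent in the genome. It gave 4109.5, 1875 and 1806 on the control arrays and 7995, 4658 and 6836 on those labelled GapmeR Ntep. Control replicate 1 was the brightest control array, and all arrays labelled GapmeR Ntep exceeded it. On the log2 scale the difference was 1.40 (SE 0.39, 95% confidence interval 0.44 to 2.36), a 2.64-fold higher signal, with an unadjusted p of 0.012 and a limma adjusted p of 0.094. With the experiments as blocks the unadjusted p was 0.004 and the adjusted p was 0.041. Within experiments 1, 2 and 3 the difference was 0.96, 1.31 and 1.92. Without control replicate 1 it was 1.78 with an unadjusted p of 0.002 (limma adjusted p = 0.063), which passed the fold and p limits. Leaving out any other array gave 1.19 to 1.62 and did not pass them. The unadjusted p then lay between 0.014 and 0.046 (limma adjusted p of 0.096 to 0.286).

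Klf6, a widely expressed activator that is induced early after injury and is known to raise transcription of the cell cycle inhibitor gene Cdkn1a, followed a similar pattern. At bases 5869371 to 5869430 of chromosome 13 the probe gave 32301, 16845 and 17252 on the control arrays and 76498, 38768 and 45660.1 on the arrays labelled GapmeR Ntep. Experiment 1 was the brightest in both groups, and the groups did not overlap. Its log2 difference was 1.28 (SE 0.38, 95% confidence interval 0.37 to 2.20), a 2.43-fold higher signal, with an unadjusted p of 0.014 and a limma adjusted p of 0.102. The differences within experiments 1, 2 and 3 were 1.24, 1.20 and 1.40, a narrower spread than that of the arrays within each group. With the experiments as blocks the unadjusted p was 0.0007 and the adjusted p was 0.031. Without control replicate 1 the difference was 1.59 with an unadjusted p of 0.006 (limma adjusted p = 0.079), and without GapmeR Ntep replicate 1 it was 1.00 (limma adjusted p = 0.205).

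Klf7, an activator known from developing neurons and from fat cells, gave a signal of 6726, 4700.3 and 5851.5 on the control arrays and 6116, 5630.2 and 6399 on those labelled GapmeR Ntep, at bases 64082265 to 64082324 of chromosome 1. The groups overlapped. For Klf7 the log2 difference was 0.08 (SE 0.19, 95% confidence interval -0.39 to 0.56, limma adjusted p = 0.813).

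**Figure D2:**
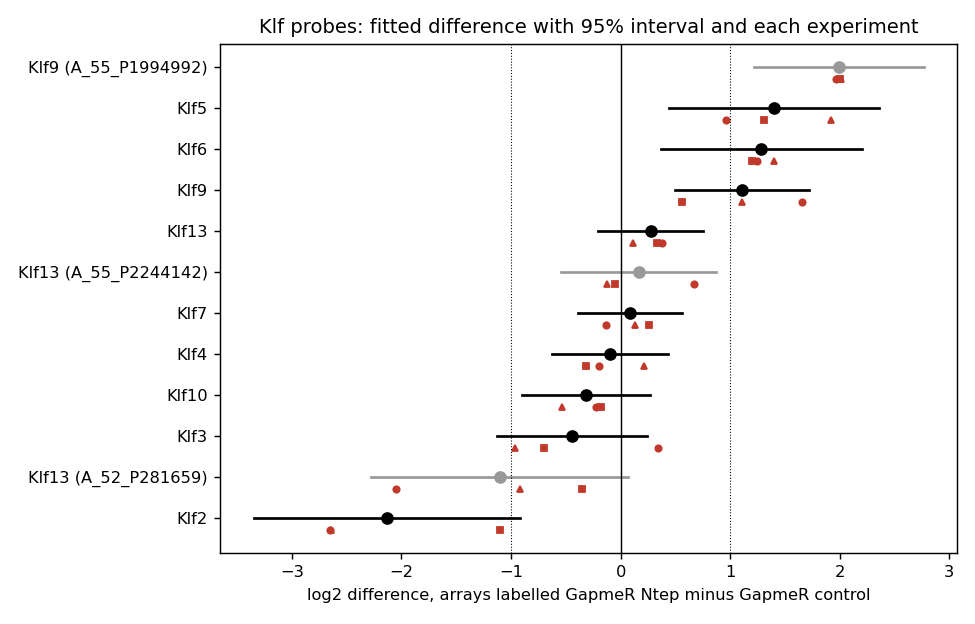
Log2 difference (arrays labelled GapmeR Ntep minus GapmeR control) of the 12 tested Klf probes, with circles for the limma estimate, bars for its 95% confidence interval and small red symbols for experiments 1 (circle), 2 (square) and 3 (triangle). Black marks the brightest probe of a gene and grey marks other probes of Klf9 and Klf13, dotted lines mark a 2-fold change, and the intervals of Klf2, Klf5, Klf6 and both Klf9 probes do not include 0.

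Klf3, a repressor that works through CtBP and restrains the maturation of fat cells, did not pass either limit. At bases 65221309 to 65221368 of chromosome 5 the probe gave 2687, 4519.5 and 4525 on the control arrays and 3406, 2779.5 and 2316 on the arrays labelled GapmeR Ntep. The array labelled GapmeR Ntep was higher in experiment 1 and lower in experiments 2 and 3, by log2 differences of 0.34, -0.70 and -0.97. The signs by experiment were those at the Ntep probe, and also those at a dimmer Klf13 probe (0.67, -0.05 and -0.12). A link to the Ntep signal was not tested. Over all arrays the log2 difference of Klf3 was -0.44 (SE 0.28, 95% confidence interval -1.13 to 0.25, limma adjusted p = 0.380).

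Klf9, a repressor of the Sin3A-binding class whose transcription is raised by glucocorticoids and thyroid hormone, rose. Its brightest probe, at bases 23240410 to 23240469 of chromosome 19, gave 3707, 4439.7 and 4040.3 on the control arrays and 11642, 6548.5 and 8722 on the arrays labelled GapmeR Ntep. The control arrays lay close together, and each array labelled GapmeR Ntep was above all of them. The log2 difference was 1.11 (SE 0.25, 95% confidence interval 0.50 to 1.72, unadjusted p = 0.004, limma adjusted p = 0.061), a 2.15-fold higher signal. With the experiments as blocks the unadjusted p was 0.012 and the adjusted p 0.063, so that the call was lost. Within experiments 1, 2 and 3 the difference was 1.65, 0.56 and 1.11. Without GapmeR Ntep replicate 2 it was 1.31 (limma adjusted p = 0.048). Without GapmeR Ntep replicate 1 it was 0.90, under a 2-fold change, and leaving out any of the other 4 arrays gave 1.04 to 1.17 with an unadjusted p between 0.012 and 0.017.

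A dimmer probe that the files also assign to Klf9, at bases 23243231 to 23243290 of the same chromosome, went the same way. It gave 30.8, 21.1 and 37.7 on the control arrays, where it was nowhere well above background, and 120.3, 84.4 and 151.9 on the arrays labelled GapmeR Ntep, where it was well above background on all 3. The log2 difference of measured values was 1.99 (SE 0.32, limma adjusted p = 0.033), which made it the 1 of 12 tested Klf probes called after adjustment. It passed the filter through the arrays labelled GapmeR Ntep alone (mean 118.9, beside 29.9 on the control arrays). Its adjusted p is therefore not independent of the filter. With each control value raised to the lowest signal well above background on its array, the arrays labelled GapmeR Ntep were 2.3-fold higher. This is not a lower bound, since a probe can exceed that lowest signal without being well above background. Under normexp background correction its difference was 0.62 (limma adjusted p = 0.076). The call after adjustment was kept without GapmeR Ntep replicate 2 (adjusted p = 0.042 by limma) and lost when any 1 of the other 5 arrays was left out (adjusted p of 0.071 to 0.140 by limma), with the methods' t-test (adjusted p = 0.085 after Benjamini-Hochberg), with no filter on dim probes (limma adjusted p = 0.086) and with a prior variance over all probes (limma adjusted p = 0.0503).

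Klf10, also known as the TGF-beta inducible early gene, was lower in all 3 experiments without passing either limit. At bases 38224255 to 38224314 of chromosome 15 it gave 38713, 28448 and 30321.5 on the control arrays and 33083, 25156 and 20871 on those labelled GapmeR Ntep. The groups overlapped because experiment 1 was the brightest in both. The log2 difference was -0.31 (SE 0.24, 95% confidence interval -0.90 to 0.27, limma adjusted p = 0.460).

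Klf13, a further member of the Sin3A-binding class that regulates the chemokine gene Ccl5 in T cells, was represented by 3 probes, of which none passed either limit. Its brightest probe, at bases 71082854 to 71082913 of chromosome 7, gave 5668, 7451.5 and 7346 on the control arrays and 7378, 9392 and 7921 on those labelled GapmeR Ntep, a log2 difference of 0.27 (SE 0.20, limma adjusted p = 0.432). The next probe, at bases 71032482 to 71032541, differed by 0.17 (limma adjusted p = 0.75). The dimmest probe, with coordinates of 71036675 to 71069606, gave 82.6, 97.1 and 78.5 on the control arrays and 20, 76.1 and 41.6 on those labelled GapmeR Ntep. It was well above background on 3 control arrays but on only 1 array labelled GapmeR Ntep. Its log2 difference of measured values was -1.10 (limma adjusted p = 0.222), -0.30 under normexp background correction and -0.61 without GapmeR Ntep replicate 1, so that no direction is read from it. Klf15, a glucocorticoid-induced factor of liver and muscle metabolism, stood at the floor of 20 on all 6 arrays at bases 90425144 to 90425203 of chromosome 6, was nowhere well above background and was not tested.

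**Figure D3:**
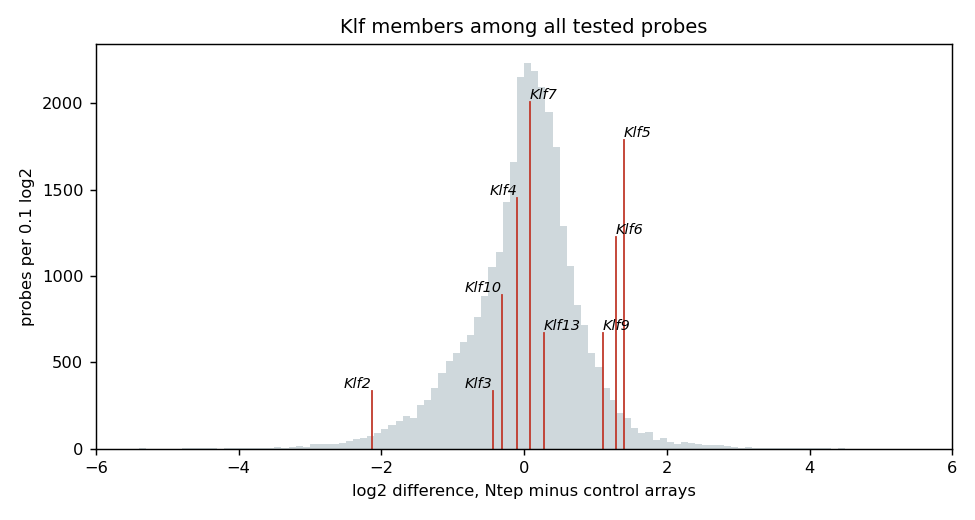
Number of tested probes in each interval of 0.1 of the log2 difference (arrays labelled GapmeR Ntep minus GapmeR control) over all 30990 tested probes, with red lines at the differences of the 9 tested Klf members by their brightest probe; the height of a line has no meaning. Klf2 lies at -2.13, where few probes are, Klf5, Klf6 and Klf9 lie between 1.11 and 1.40, and the other 5 members lie between -0.44 and 0.27.

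Of the 7 other Klf genes on the array 4 were tested, and Klf12, a repressor that recruits CtBP as Klf3 does, fell. Klf12 gave 54.9, 98.2 and 101.5 on the control arrays, all well above background, and 20, 24.2 and 20 on the arrays labelled GapmeR Ntep, none of them well above background. Its log2 difference of measured values was -1.94 (SE 0.28, limma adjusted p = 0.029). With each value under the GapmeR Ntep label raised to the lowest signal well above background on its array, the signal was 1.65-fold lower. This is not a lower bound either. Klf12 passed the filter through the control arrays alone (mean 84.9, beside 21.4 on the arrays labelled GapmeR Ntep). With no filter on dim probes the limma adjusted p of Klf12 was 0.074. Under normexp background correction its difference was -0.53 (limma adjusted p = 0.082). Klf16 differed by 0.81 (limma adjusted p = 0.158), Klf1 by 0.38 (limma adjusted p = 0.413) and Klf11 by 0.10 (limma adjusted p = 0.900), whereas Klf8, Klf14 and Klf17 were nowhere well above background. Of the Sp factors, which bind the same GC boxes, 5 of 9 were tested and 0 passed either limit by limma.

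Among the 12 cofactors and ubiquitin ligases of KLF proteins none passed the fold and p limits, and 1 passed after adjustment. This was Hdac3, a histone deacetylase, which fell by 0.78 on the log2 scale (SE 0.15, limma adjusted p = 0.047). Ctbp2, a corepressor of Klf3, differed by -0.93 (SE 0.20, limma adjusted p = 0.053). The ERK5 and MEF2 route to Klf2 and Klf4 had 7 of 8 genes tested, and 0 passed either limit by their brightest probe. Mapk7, which encodes ERK5, differed by 0.46 (limma adjusted p = 0.197). Mef2a, a MEF2 factor, differed by -0.32 at its brightest probe (limma adjusted p = 0.299), but a dim second probe passed both limits. That probe gave 103.4, 83.6 and 68.6 on the control arrays, all well above background. On the arrays labelled GapmeR Ntep it gave 33.0, 20 and 29.4, none of them well above background (limma adjusted p = 0.033 for the measured values). With those values raised to the lowest signal well above background on their array, it was 1.69-fold lower, which is not a lower bound. It passed the filter through the control arrays alone, so that this adjusted p is not independent of the filter.

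A further list held the glucocorticoid receptor gene Nr3c1 and genes that respond to glucocorticoids, as Klf9 and Klf15 do. Of these, 6 of 7 were tested and 1 passed. Whether glucocorticoids had a part in the rise of Klf9 was not tested. Per1, a clock gene with glucocorticoid response elements, gave 20181, 17178 and 17603 on the control arrays and 46693, 36714 and 36904 on the arrays labelled GapmeR Ntep. It rose by 1.12 on the log2 scale (SE 0.18, limma adjusted p = 0.033), and the groups did not overlap. Dusp1, a phosphatase of MAP kinases, differed by 1.37 (limma adjusted p = 0.143) and Sgk1, a kinase, by 1.38 (limma adjusted p = 0.253), both past the 2-fold limit but not the p limit, and the receptor gene Nr3c1 by -0.23 (limma adjusted p = 0.575). The median of the 6 tested genes was 0.86, beside 0.06 over all tested probes, with 5 of 6 above 0.

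In the TGF-beta route, which induces Klf10, 9 of 9 genes were tested and 2 passed the fold and p limits. Smad2, a signal transducer, gave 11759, 5919 and 6236 on the control arrays and 3064, 2523 and 2570.1 on the arrays labelled GapmeR Ntep, a fall of 1.48 on the log2 scale (SE 0.30, limma adjusted p = 0.0505, and 0.034 with the experiments as blocks). The ligand gene Tgfb2 fell by 1.06 on the log2 scale (SE 0.23, limma adjusted p = 0.056, and 0.040 with blocks). The receptor gene Tgfbr2 differed by -0.07 at its brightest probe (limma adjusted p = 0.864), whereas its dimmer probe rose, from 579.9, 544.4 and 545.5 on the control arrays to 1547, 1341 and 1882 on those labelled GapmeR Ntep. Each of the 6 arrays had this second probe well above background, and it gave a log2 difference of 1.5 (SE 0.19, limma adjusted p = 0.024), so that the probes of Tgfbr2 disagreed. The median of this group by brightest probe was -0.08.

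Of 12 genes that textbooks name as targets of KLF proteins, 1 rose, 1 fell and 10 did not pass the fold and p limits by their brightest probe. S1pr1, a receptor gene that Klf2 activates in T cells, gave 639, 762 and 536 on the control arrays and 95.1, 250.4 and 217 on the arrays labelled GapmeR Ntep. It was lower on all 3 of these arrays, with a log2 difference of -1.89 (SE 0.40, limma adjusted p = 0.053, and 0.044 with the experiments as blocks). Cdkn1a, an inhibitor of cyclin-dependent kinases that Klf4 and Klf6 activate, gave 7039, 5347 and 6710.5 on the control arrays and 20582, 10004 and 14155 on those labelled GapmeR Ntep, for a log2 difference of 1.18 (SE 0.30, limma adjusted p = 0.077, and 0.039 with blocks). A dim second probe of Cdkn1a was nowhere well above background on the control arrays. Its log2 difference of measured values was 2.25 (limma adjusted p = 0.047). With each control value raised to the lowest signal well above background on its array, it was 2.66-fold higher, which is not a lower bound. This probe passed the filter through the arrays labelled GapmeR Ntep alone, so that its adjusted p is not independent of the filter. For the cyclin gene Ccnb1 the probes disagreed, with -0.20 at the brightest (limma adjusted p = 0.452) and 1.15 at another that passed the fold and p limits (limma adjusted p = 0.052). Other targets named for Klf2 in endothelium did not pass, with Thbd at 0.38 (limma adjusted p = 0.675) and Nos3 at -0.28 (limma adjusted p = 0.806).

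**Figure D4:**
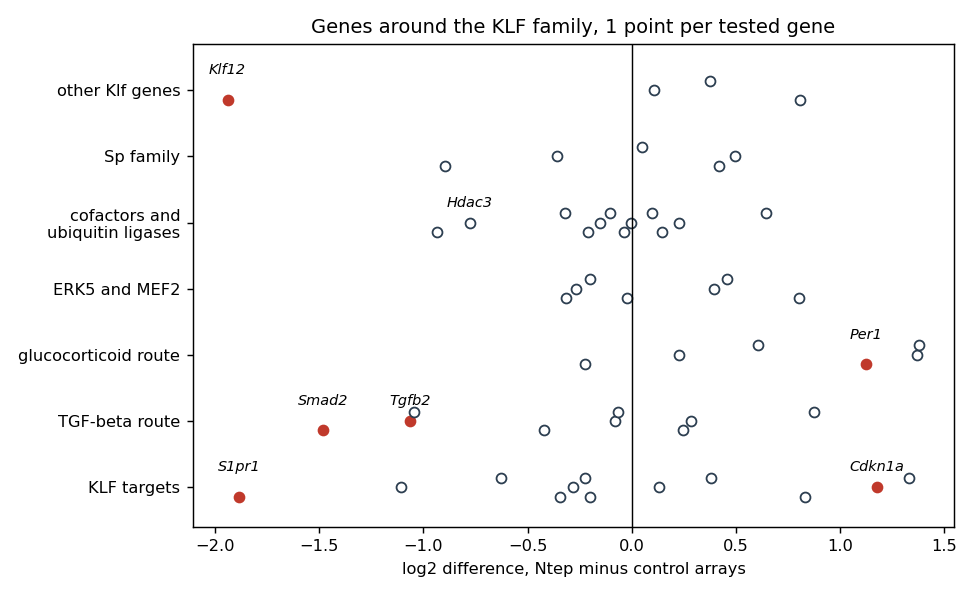
Log2 difference (arrays labelled GapmeR Ntep minus GapmeR control) of the 55 tested genes in the 7 groups around the KLF family, 1 point per gene by its brightest probe. Filled red points passed a fold change of 2 with an unadjusted p under 0.01, and names mark the 6 genes that did so and Hdac3, which passed after adjustment only.

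Over the 7 groups, 2 of 55 tested genes were called higher and 4 lower at the fold and p limits, beside 3.08% and 5.06% of all tested probes, and 3 were called after adjustment, beside 5.3%. Per1 and Klf12 kept the fold and p limits without any 1 of the 6 arrays. For Klf12 this is not independent of the filter, which it had passed through the control arrays alone and which these fits kept. Under normexp background correction Klf12 differed by -0.53 and did not pass the fold and p limits. Smad2 and S1pr1 kept the fold and p limits in 4 of the 6 fits that left out 1 array (Smad2 not without GapmeR Ntep replicate 2 or 3, S1pr1 not without control replicate 1 or 2). Tgfb2 kept them in 2 of 6 (without GapmeR Ntep replicate 1 or control replicate 2) and Cdkn1a in 1 of 6 (without GapmeR Ntep replicate 2). After adjustment, 0 or 1 of the 55 genes passed when any 1 array was left out. With the experiments as blocks 10 of 55 genes passed the fold and p limits, beside 11.2% of all tested probes in that fit, and 11 passed after adjustment, beside 13.8%.

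Markers of other cell types were read beside these values. The summed signal of 6 macrophage genes was 15486 to 21197 on the control arrays and 33017 to 62713 on the arrays labelled GapmeR Ntep. Cd68, a lysosomal protein gene of phagocytes, rose by 1.21 on the log2 scale (limma adjusted p = 0.029), while Itgam differed by 1.26 (limma adjusted p = 0.088) and Csf1r by 3.19 (limma adjusted p = 0.151), each at its brightest probe. A dimmer probe of Cd68 differed by 0.68 (limma adjusted p = 0.143) and did not pass either limit. Other tested probes differed by -0.03 for Itgam (limma adjusted p = 0.956) and 0.44 for Csf1r (limma adjusted p = 0.267). Lyz2 differed by -0.18 (limma adjusted p = 0.746), and the sums rest mainly on single bright probes. The defining markers Ptprc and Adgre1 were nowhere well above background. Of 4 endothelial genes Cdh5 and Tek were nowhere well above background. Pecam1 and Kdr were well above it on all 6 arrays, and differed by 0.38 (limma adjusted p = 0.264) and 0.41 (limma adjusted p = 0.184). The summed signal of the endothelial list was 559 to 635 on the control arrays and 728 to 806 on those labelled GapmeR Ntep. The 4 epithelial genes summed to 1767 to 3750.4 and 2727 to 5354. Among them Krt8 and Krt18 were well above background on all 6 arrays, Epcam and Cdh1 only on some. At their brightest probes Krt8 differed by 0.20 (limma adjusted p = 0.792) and Krt18 by 1.56 (limma adjusted p = 0.185). The fibroblast genes summed to 805861 to 887735 on the control arrays and 554877 to 735434 on those labelled GapmeR Ntep, and 0 of 8 passed either limit by limma. The part of these shifts in the values of the Klf members was not tested.

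**Figure D5:**
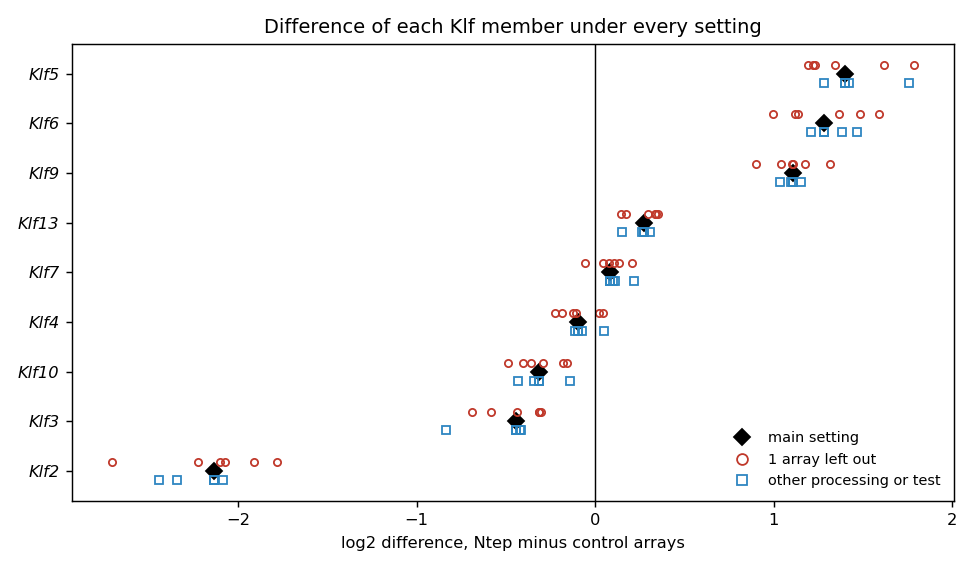
Log2 difference (arrays labelled GapmeR Ntep minus GapmeR control) of the 9 tested Klf members under every setting, with a black diamond for the value reported, red circles for fits that leave out 1 array and blue squares for other processing or another test. Klf2 stayed between -2.71 and -1.78, Klf5, Klf6 and Klf9 stayed above 0 throughout, and Klf4 and Klf7 lay on both sides of 0.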

How the data were processed

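The authors hybridised RNA of 6 cultures to one-colour Agilent arrays and extracted the scans with Feature Extraction 10.7.3.1, per the labels. The deposited scanner files hold intensities, linear and background subtracted but not normalised between arrays, with probe coordinates in mm9. A second deposited table holds intensities that the authors quantile normalised with values under 20 set to 20. Methods and supplement name different array formats, and labels and methods different RNA kits.

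Spots of a probe were averaged, arrays were quantile normalised with a floor of 20, and log2 intensities were fitted by limma 3.58.1 (R 4.3.3) without blocks, over probes whose mean reached 50 in the brighter group. Limits were a fold change of 2 with an unadjusted p under 0.01, and a Benjamini-Hochberg adjusted p under 0.05, all two-sided. Of the values, 99.9% lay within 0.1 log2 of the authors' table. The brightest probe over all 6 arrays stood for a gene. All Klf members were named with every probe, as were the other Klf genes and up to 3 genes with the smallest p of each further list where a result turned on them. Beyond that rule, Nr3c1, Sgk1, Fkbp5, Zbtb16, Thbd, Nos3, Tgfbr2, Ccnb1 and the marker genes were named after their values had been seen. So were the dimmer probes of Mef2a, Tgfbr2, Cdkn1a, Ccnb1 and Nos3.

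Replicate numbers follow accession order and match the numbering by which the study's supplement forms ratios from its independent experiments. Residuals of same-numbered arrays correlated at 0.25 to 0.47, and those of other pairs at -0.33 to 0.13. The numbers were therefore taken to pair the arrays, and a fit with the experiments as blocks was run beside the unpaired one. All arrays shared 1 slide and 1 scan, so no batch could be set against the labels. The number of arrays limits the precision.

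Members and gene lists were chosen with earlier results of these data known. Promoter sequences came from RefSeq (GRCm38.p6), whose table matched 8 of 10 members. Proteins were not compared here. The fit was tested on simulated data. Alternatives were 75th percentile scaling, normexp, the authors' table, other floors and filters, outlier spots left out, an intensity trend, array weights, the methods' t-test, any probe per gene and the omission of each array.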

Additional observations from a re-analysis of the deposited data

How the results depend on the processing

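Over the 12 tested Klf probes and 18 alternative settings, 184 of 216 values kept both their direction and their side of the fold and p limits, 16 lost the limits, 10 gained them and 6 changed sign. The causes were not tested. Changes of sign were limited to differences near 0: Klf4 was 0.051 with array weights and between -0.22 and 0.042 when 1 array was left out (0.042 without GapmeR control replicate 1, 0.022 without GapmeR Ntep replicate 2), Klf7 was between -0.055 (without GapmeR control replicate 2) and 0.20 when 1 array was left out, and a dimmer Klf13 probe was -0.046 with array weights and between -0.14 (without GapmeR control replicate 1) and 0.33 when 1 array was left out. Ntep was between -1.06 (without GapmeR Ntep replicate 1) and 0.13 (without GapmeR Ntep replicate 2).

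The 2 Klf members called at the fold and p limits became 1 with no filter on dim probes, 4 with an intensity trend, 4 with array weights and 0 with the methods' t-test, and lay between 0 and 2 when 1 array was left out. A prior variance taken over all probes, an alternative chosen after seeing the data, left 1. After adjustment the count of 0 became 2 with normexp, 2 with probes well above background on at least 3 arrays, 3 with the replicate block, 2 with the intensity trend, 5 with array weights, 1 with any probe of the gene and 0 to 2 when 1 array was left out. The replicate block changed no call of a Klf member other than those given for Klf2, Klf5, Klf6 and Klf9.

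The 6 related genes called at the fold and p limits became 10 with the replicate block, 3 with the methods' t-test and 3 to 6 when 1 array was left out. The 3 called after adjustment became 6 with normexp, 1 with no filter, 7 with probes well above background on at least 3 arrays, 11 with the replicate block, 8 with the intensity trend, 19 with array weights, 1 with the methods' t-test, 6 with any probe and 0 to 1 when 1 array was left out. Of all tested probes, 2520 passed the fold and p limits, 4506 with array weights, 1457 with the methods' t-test and 1544 to 3081 when 1 array was left out. After adjustment 1642 passed, 2557 with normexp, 564 with no filter, 4292 with the replicate block, 2707 with the intensity trend, 10260 with array weights, 285 with the methods' t-test and 0 to 1327 when 1 array was left out. Scaling by the 75th percentile moved the median difference of all tested probes from 0.06 to 0.22, and the Klf members kept their directions under it. Signals near background, as at the dim probes of Klf9, Klf12 and Klf13, depend on the background correction.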
